A study of Mus musculus with 12 samples.

Results

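The genes described here are 44 mouse genes for matrix components other than collagen and for surface proteins of fibroblasts, taken from a list of symbols and found among the array's probes through RefSeq accessions. They comprise 9 adhesive and matricellular glycoproteins, 8 proteoglycans, 11 elastic fibre and microfibril proteins, 7 collagen-processing and crosslinking proteins, 3 basement membrane proteins and 6 surface markers. At least 1 probe was matched to 43 of the 44, and 42 entered the tests among 12300 genes of the whole array. Lox was matched to no probe and was not analysed here. Loxl2, a lysyl oxidase family enzyme, was left out because its probe was well above background on 1 of 3 arrays of control cells with the empty virus and on 0 of 3 arrays in each other group.

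The cells were C3H/10T1/2, a mouse embryo line of fibroblast type that the muscle transcription factor MyoD can convert to skeletal muscle. Of 4 groups with 3 arrays each, the first was a line with a stable short hairpin RNA against the homeobox gene Six4 (shSix4) infected with a retrovirus for tagged MyoD (pBABE-MyoD). The second was the control hairpin line (shLuc) with the same MyoD virus. The third was the shSix4 line with the empty virus (pBABE), and the fourth was the shLuc line with the empty virus. Differentiation medium, with 2% horse serum, was given 24 hours after infection and kept for 24 hours, so every group carried a hairpin, a virus and a day without growth medium. Each hairpin is represented by 1 line, and the labels say neither whether a line was a clone or a pool nor whether the replicates were grown apart. The p-values therefore describe the spread of these arrays and no more. Total RNA was hybridised as Cy3-labelled cRNA to 1-colour Agilent arrays. Levels are log2 of the processed signal minus the array's own 75th percentile, and differences are log2 differences of such levels. Means are given ± SD and fitted differences ± SE. A level is not compared between genes, because each probe has its own brightness. Values of 3 arrays are always given for slides 1, 2 and 3 in that order, since each slide held 1 array of every group.

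Matrix glycoproteins and proteoglycans surround fibroblasts, bind growth factors and collagen, and signal to cells through integrins and other receptors. Elastic fibres form when elastin is laid onto microfibrils of fibrillin, with fibulins and related proteins taking part, while small leucine-rich proteoglycans such as decorin and lumican bind collagen fibrils and affect their width. Skeletal muscle cells make less of much of this matrix than connective tissue fibroblasts, which are its main source in muscle. MyoD binds the E-box, CANNTG, and Six4 with its relatives binds the MEF3 motif, which holds TCAGGTT.

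The hairpin's target, Six4, had log2 levels of -3.03, -2.93 and -1.54 in shSix4 cells with MyoD, against -1.45, -1.69 and -0.85 in shLuc cells with MyoD. With the empty vector its levels were -4.10, -3.0 and -2.82 in shSix4 cells and -2.62, -2.90 and -1.64 in shLuc cells. Six4 was thus lower in shSix4 cells on every slide, but the ranges of the groups overlapped, and the adjusted p of the difference was 0.558 with MyoD and 0.999 with the empty vector (0.0424 and 0.168 with the replicate number, which is the slide, as a block). Myod1 itself had levels of -2.17, -0.86 and -0.23 in shSix4 cells with the MyoD virus and -4.37 and -2.01 with the empty vector. In shLuc cells its levels were 0.07, -0.23 and 1.23 with the MyoD virus and -4.77 and -2.57 with the empty vector, the slide 3 array with the empty vector being left out as an outlier in both lines. It was higher with the virus by 2.10 ± 0.90 in shSix4 cells (adjusted p 0.482) and 4.03 ± 0.90 in shLuc cells (adjusted p 0.0315). These values set 3 arrays against 2, and with the block they were 1.67 and 3.59. Within slides 1 and 2 they were 2.20 and 1.15 in shSix4 cells and 4.84 and 2.34 in shLuc cells. Given the MyoD virus, shSix4 cells had less Myod1 than shLuc cells, but the groups all but met, the highest shSix4 and lowest shLuc level both being -0.23. That difference was -1.45 ± 0.81 (adjusted p 0.837, 0.152 with the block). Its part in the hairpin differences with MyoD was not tested. All 10 general fibroblast markers listed, collagen I chains among them, were well above background in every group. Of 5 endothelial and leukocyte markers with a probe, none reached that level on all arrays of a group.

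The skeletal muscle markers moved with the MyoD virus. Summed over 10 markers, in multiples of the array's 75th percentile, their signal ranged over 214 to 384 in shSix4 cells with MyoD, 601 to 955 in shLuc cells given MyoD, 11 to 55.1 in shSix4 cells given the empty vector and 24.0 to 44.1 in shLuc cells with the empty vector. The sums over 6 adipocyte markers ranged over 3.73 to 5.24 in shSix4 cells with MyoD, 3.13 to 3.75 in shLuc cells given MyoD, 5.94 to 7.86 in shSix4 cells given the empty vector and 5.89 to 7.16 in shLuc cells with the empty vector. Those over 6 bone and cartilage markers, of which Ibsp was above background on no array, ranged over 16.5 to 41.5, 15.3 to 33.0, 34.6 to 52.9 and 29.7 to 47.1 in the same groups. The part of these markers in the differences of the matrix genes was not tested. Since these are bulk samples, fewer fibroblast-like cells and less matrix RNA per cell cannot be told apart. The place of an array on its slide was the same for all arrays of a group, so place and group cannot be told apart.

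Promoter sequence was available for 29 of the 42 tested genes, in 37 windows of 250 bases before an annotated start (RefSeq, GRCm38.p6). The 3 windows below belong to the genes with a called difference in the main test, Cspg4 and Lrrc15, and to Spp1, which had the largest MyoD difference in shSix4 cells. E-boxes are in capitals. The window of Cspg4, at chr9:56864854-56865103 on the plus strand, holds none. That of Lrrc15, at chr16:30283255-30283504 on the minus strand, holds 1, which starts 151 bases before the start site. The first of 2 windows of Spp1, at chr5:104434861-104435110 on the plus strand, holds 1, starting 98 bases before it.
Cspg4: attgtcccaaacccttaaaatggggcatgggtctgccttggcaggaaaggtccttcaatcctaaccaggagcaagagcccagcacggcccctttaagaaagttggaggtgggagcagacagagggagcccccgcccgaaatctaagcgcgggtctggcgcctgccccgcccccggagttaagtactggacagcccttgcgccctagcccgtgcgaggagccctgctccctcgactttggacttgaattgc
Lrrc15: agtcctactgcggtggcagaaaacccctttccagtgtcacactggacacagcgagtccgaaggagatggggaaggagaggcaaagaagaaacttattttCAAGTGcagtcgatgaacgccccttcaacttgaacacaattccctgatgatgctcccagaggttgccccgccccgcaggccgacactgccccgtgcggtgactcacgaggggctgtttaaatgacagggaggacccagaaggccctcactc
Spp1: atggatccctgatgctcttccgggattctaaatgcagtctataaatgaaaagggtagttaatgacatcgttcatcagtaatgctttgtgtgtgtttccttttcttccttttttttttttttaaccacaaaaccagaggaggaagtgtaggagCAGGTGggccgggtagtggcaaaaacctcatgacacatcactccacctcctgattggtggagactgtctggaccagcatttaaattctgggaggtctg

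CANNTG, which reads the same on both strands, was found in 22 of the 37 member windows (59.5%), against 66.2% of 32851 windows of all genes. On either strand, its form CAGCTG was in 16.2% of member windows and 13.0% of all windows, and its form CACCTG, or CAGGTG on the other strand, in 5.41% of member windows and 17.2% of all windows. TCAGGTT, which shares no bases with any E-box, was in 1 member window (2.70%) and in 3.49% of all windows. These shares are a description without a test.

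The members differed between slides, and slide 1 stood apart. Of 40 members measured on every array, 20 (50%) had slide 1 as the lowest of the 3 in all 4 groups, against 19.6% of 12144 genes. Slide 1 was the highest in all 4 groups for 2 members, Spp1 and P4ha1, against 26.3% of genes. Averaged over the groups, slide 1 lay below the mean of slides 2 and 3 by log2 differences of -2.55 for Postn, -2.30 for Mfap2, -2.24 for Prelp, -2.18 for Pdgfra and -1.83 for Nid2. It lay above by 2.39 for Spp1 and by 1.20 for Fbln1. For Postn the slide 1 difference was -3.59 in shSix4 cells with MyoD, -2.04 in shLuc cells given MyoD, -3.09 in shSix4 cells given the empty vector and -1.46 in shLuc cells with the empty vector. Its levels on slides 2 and 3 ran from 6.18 to 6.75 over all groups and did not overlap those on slide 1, which ran from 2.73 to 5.20. Except for Fbln1, these slide differences exceeded every MyoD and hairpin difference of the same gene. The cell cycle markers described further on were highest on slide 1 in every group, and the bone and cartilage markers lowest. Each slide was also scanned separately, and slide, scan and replicate cannot be told apart.

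**Figure D1:**
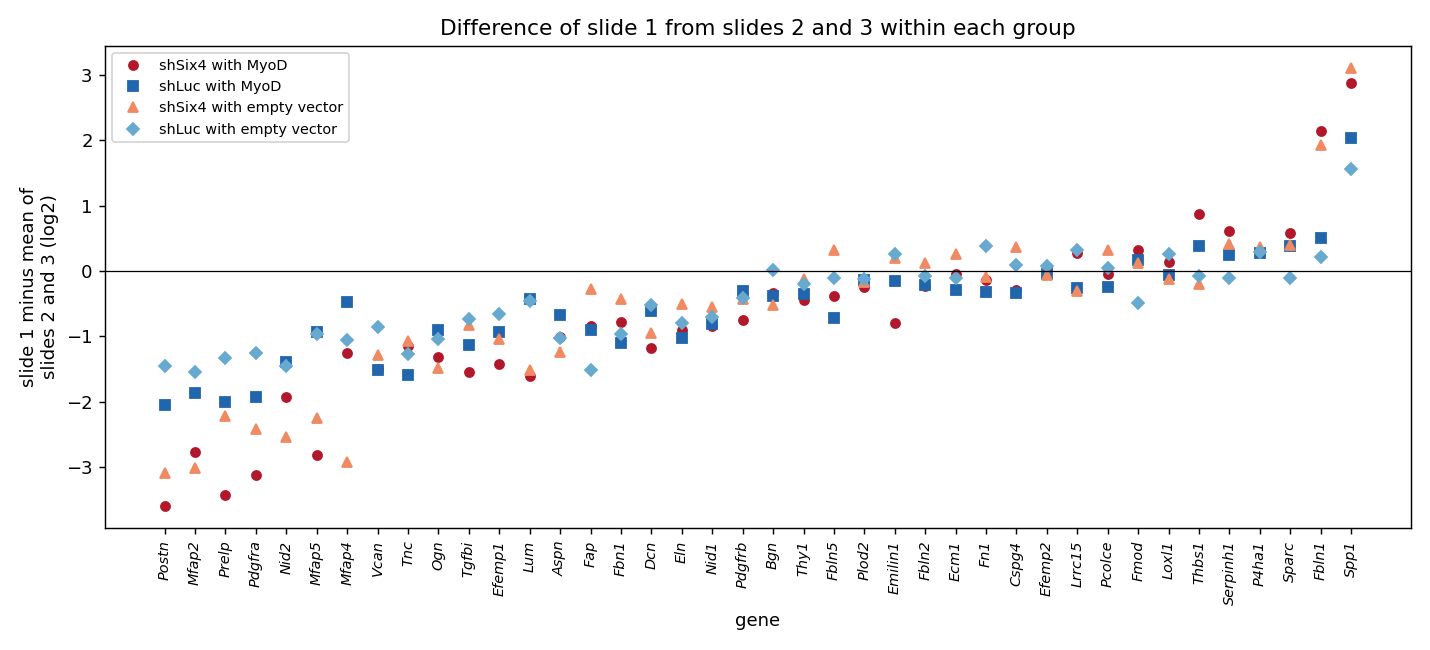
Level on slide 1 minus the mean of slides 2 and 3 (log2) for each of the members measured on every array, with 1 symbol per group and genes ordered by the average over the groups. Postn, Mfap2, Prelp and Pdgfra lie lowest, Spp1 lies highest, and for most members on the left all 4 groups lie below 0.

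MyoD against the empty vector is the first comparison, made within each hairpin line. Cspg4, which encodes the transmembrane proteoglycan NG2 of pericytes and mesenchymal cells, fell with MyoD in both lines. No other member passed the main test. In shSix4 cells 1 of 42 members was called lower and 0 higher, where 0.106% of 12300 genes were lower and 2.79% higher. In shLuc cells again 1 of 42 was lower and 0 higher, where 1.56% of genes were lower and 4.72% higher. The test was limma on all 12 arrays with group means, and a call is an adjusted p under 0.05 over all genes. At an unadjusted p under 0.05 there were 6 members in shSix4 cells, where 9.77% of all genes lay under that value, and 9 in shLuc cells, where 19.3% did.

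The same-numbered arrays of the 4 groups share a slide and deviated together, so the slide was also fitted as a block. With it 6 members passed in shSix4 cells, 2 higher and 4 lower, against 5.7% higher and 2.6% lower over all genes (8.3% in all). In shLuc cells 18 passed, 4 higher and 14 lower, against 9.89% higher and 15.7% lower (25.6% in all). Of the 4 higher, Fap passed the filter on dim probes only through shLuc cells with MyoD, the group where it was high. Among genes well above background on every array of both shLuc groups, 17 of 41 members passed, 3 higher and 14 lower, against 24.5% of 11335 genes. Without slide 1 and without a block, 1 of 42 members passed in shSix4 cells (3.52% of all genes) and 6 in shLuc cells (8.13% of all genes). Group values that did not overlap were counted as well: in shSix4 cells 1 of 42 members lay wholly higher with MyoD and 7 wholly lower (7.15% and 7.38% of all genes), and in shLuc cells 3 of 40 lay higher and 9 lower (10.2% and 15.9% of all genes). The 3 higher in shLuc cells include Fap. The 7 lower in shSix4 cells include Lrrc15, which was not above background on every array of either shSix4 group. The median member difference was -0.28 in shSix4 cells and -0.39 in shLuc cells, beside medians over all genes of -0.06 and -0.14.

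**Figure D2:**
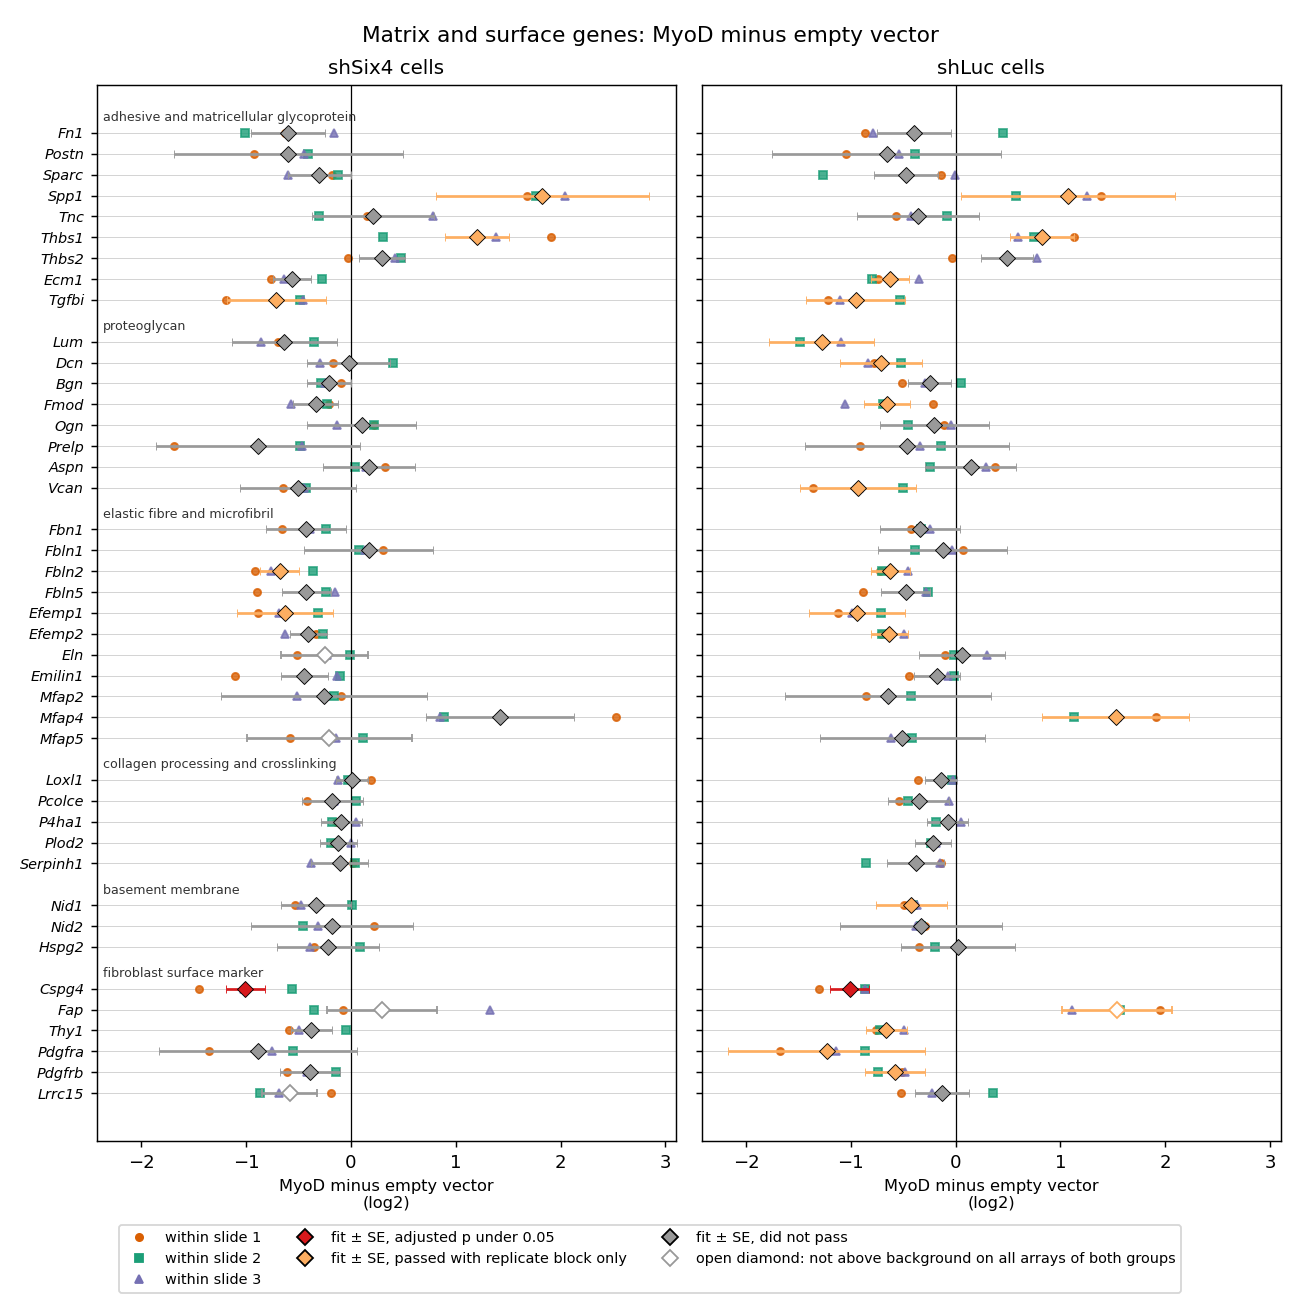
MyoD minus empty vector on the log2 scale for each tested gene, ordered by role, with shSix4 cells on the left and shLuc cells on the right. Small symbols are the differences within each slide, diamonds with bars are the fit with its SE, and colour shows whether the fit passed: Cspg4, in red, lies at -1.01 in both panels, and most diamonds lie left of 0. Open diamonds, Fap's among them, mark genes that were not well above background on all arrays of both groups.

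Among the surface markers, Cspg4 (probe A_52_P278064) had log2 levels of 2.72, 3.14 and 2.89 in shSix4 cells with MyoD, against 4.17, 3.70 and 3.91 with the empty vector. In shLuc cells its levels were 2.52, 2.84 and 2.87 with MyoD and 3.82, 3.70 and 3.74 with the empty vector. Every MyoD array lay below every empty-vector array. The log2 difference was -1.01 ± 0.19 in shSix4 cells (SE; 2.01-fold lower, adjusted p 0.011) and -1.01 ± 0.19 in shLuc cells (2.01-fold lower, adjusted p 0.00671), and within slides it was -1.44, -0.57 and -1.01 in shSix4 cells and -1.30, -0.86 and -0.87 in shLuc cells. A second Cspg4 probe gave log2 differences of -0.99 and -0.85. Without slide 1 the difference in shSix4 cells was -0.79 with an adjusted p of 0.0561, so that call was lost, while in shLuc cells it was -0.87 with an adjusted p of 0.0232. The call in shSix4 cells was also lost when the slide 1 or the slide 3 array of shSix4 cells with MyoD was left out, at adjusted p 0.0527 and 0.0512, and when only the 6 shSix4 arrays were fitted, at 0.114. Calls over all genes were then 277, 266 and 227, against 356 in the main test. With normexp background correction the differences were -0.95 in shSix4 cells and -0.80 in shLuc cells and neither was called (adjusted p 0.999993 and 0.999938).

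Thy1, a glycolipid-anchored protein used to sort fibroblasts, had levels of 3.61, 4.19 and 3.92 in shSix4 cells with MyoD, against 4.20, 4.24 and 4.41 with the empty vector. Its shLuc levels were 2.99, 3.35 and 3.34 with MyoD and 3.76, 4.07 and 3.84 with the empty vector. MyoD arrays lay lower than empty-vector arrays without overlap in both lines. This gave a log2 difference of -0.38 ± 0.20 in shSix4 cells (adjusted p 0.618, 0.116 with the block) and -0.66 ± 0.20 in shLuc cells (adjusted p 0.0783, 0.00701 with the block).

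Pdgfra, the PDGF receptor that marks mesenchymal progenitors of muscle, had levels of -0.25, 2.76 and 2.96 in shSix4 cells with MyoD, against 1.1, 3.31 and 3.71 with the empty vector. The shLuc arrays gave -0.10, 1.69 and 1.95 with MyoD and 1.58, 2.56 and 3.10 with the empty vector. On each slide MyoD was the lower of the pair, but slide 1 lay so far below the others that the groups overlapped. The fitted difference was -0.88 ± 0.94 in shSix4 cells (adjusted p 0.95, 0.126 with the block) and -1.23 ± 0.94 in shLuc cells (adjusted p 0.541, 0.0208 with the block). For Pdgfrb, the related receptor of pericytes and fibroblasts, levels were 4.08, 4.91 and 4.77 in shSix4 cells with MyoD and 4.69, 5.05 and 5.19 with the empty vector. Its levels in shLuc cells were 4.22, 4.74 and 4.32 with MyoD and 4.73, 5.49 and 4.80 with the empty vector. Here too each slide pair was lower with MyoD, and the groups overlapped. The Pdgfrb log2 difference was -0.39 ± 0.28 in shSix4 cells (adjusted p 0.838, 0.196 with the block) and -0.58 ± 0.28 in shLuc cells (adjusted p 0.303, 0.0338 with the block).

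Fap, a surface protease of activated fibroblasts, exceeded background on all 3 arrays only in shLuc cells with MyoD, and passed the filter through that group alone. It was above background on 1 array each of shSix4 cells with MyoD and of shLuc cells with the empty vector, and on 0 of shSix4 cells with the empty vector. Its measured levels in shLuc cells were -5.27, -4.38 and -4.34 with MyoD and -7.21, -5.95 and -5.46 with the empty vector. In shSix4 cells the levels were -7.10, -7.12 and -5.41 with MyoD and -7.02, -6.77 and -6.73 with the empty vector. Levels not above background have no order, so no difference of Fap is given, although it is counted among the blocked calls of shLuc cells.

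Among adhesive and matricellular glycoproteins, 0 of 9 passed the main test in either line. Over all genes 2.89% passed it in shSix4 cells and 6.28% in shLuc cells. Spp1 encodes osteopontin, a secreted integrin ligand of bone and injured tissue, and had levels of 7.78, 4.94 and 4.87 in shSix4 cells with MyoD, against 6.11, 3.18 and 2.83 with the empty vector. Levels in shLuc cells were 6.13, 4.15 and 4.06 with MyoD and 4.75, 3.58 and 2.81 with the empty vector. Slide 1 was the highest of the 3 in each group, and within every slide MyoD was the higher of the pair. As a log2 difference this was 1.83 ± 1.02 in shSix4 cells (adjusted p 0.675, 0.00597 with the block) and 1.07 ± 1.02 in shLuc cells (adjusted p 0.641, 0.0329 with the block). Without slide 1 it was 1.90 in shSix4 cells, with an adjusted p of 0.00742, and 0.91 in shLuc cells, with an adjusted p of 0.0853.

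Thbs1 encodes thrombospondin 1, a matricellular protein that can activate latent TGF-beta. Its levels were 1.45, 0.04 and 1.12 in shSix4 cells with MyoD and -0.47, -0.27 and -0.27 with the empty vector. For shLuc cells the values were 1.71, 1.28 and 1.37 with MyoD and 0.58, 0.53 and 0.78 with the empty vector. MyoD arrays lay wholly higher in both lines. The log2 difference was 1.20 ± 0.31 in shSix4 cells (adjusted p 0.0731, 0.0227 with the block) and 0.82 ± 0.31 in shLuc cells (adjusted p 0.164, 0.0463 with the block), and the other 2 Thbs1 probes gave differences of 1.32 and 1.41 in shSix4 cells and 0.85 and 0.70 in shLuc cells.

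Ecm1 and Tgfbi lay lower with MyoD. Ecm1, a secreted glycoprotein of skin and connective tissue, had levels of 5.52, 5.73 and 5.39 in shSix4 cells with MyoD, against 6.28, 6.01 and 6.03 with the empty vector. Among shLuc arrays the levels were 4.73, 4.97 and 5.07 with MyoD and 5.48, 5.77 and 5.42 with the empty vector. The groups did not overlap in either line. The Ecm1 log2 difference was -0.56 ± 0.18 in shSix4 cells (adjusted p 0.196, 0.0527 with the block) and -0.63 ± 0.18 in shLuc cells (adjusted p 0.0691, 0.0161 with the block).

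Tgfbi encodes an adhesion protein induced by TGF-beta, and had levels of 0.23, 1.71 and 1.83 in shSix4 cells with MyoD, against 1.42, 2.19 and 2.29 with the empty vector. In shLuc cells its levels were 1.02, 2.28 and 2.03 with MyoD and 2.23, 2.81 and 3.14 with the empty vector. Slide 1 was lowest in each group and the groups overlapped, although each slide pair was lower with MyoD. The Tgfbi log2 difference was -0.71 ± 0.47 in shSix4 cells (adjusted p 0.797, 0.0468 with the block) and -0.95 ± 0.47 in shLuc cells (adjusted p 0.308, 0.00639 with the block). The other 5 glycoproteins, Fn1 (fibronectin), Postn (periostin), Sparc (osteonectin), Tnc (tenascin C) and Thbs2 (thrombospondin 2), passed neither fit in either line. Their differences ran over -0.60 to 0.29 in shSix4 cells and -0.66 to 0.49 in shLuc cells. The Thbs2 value in shLuc cells rests on 2 MyoD arrays, because 1 spot was marked as an outlier on slide 2. Within slides 1 and 3 it was -0.03 and 0.78, and with the block 0.39.

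Proteoglycans are described next. Of 8, 0 passed the main test in either line, and with the block 0 passed in shSix4 cells and 4 in shLuc cells, all lower. Over all genes 2.6% were lower with the block in shSix4 cells and 15.7% in shLuc cells. Lum, the small leucine-rich proteoglycan lumican, had levels of -2.35, -0.54 and -0.95 in shSix4 cells with MyoD, against -1.65, -0.19 and -0.09 with the empty vector. Its shLuc levels were -0.22, 0.30 and 0.11 with MyoD and 1.04, 1.79 and 1.20 with the empty vector. The groups overlapped in shSix4 cells and were apart in shLuc cells. This gave a log2 difference of -0.64 ± 0.50 in shSix4 cells (adjusted p 0.87, 0.207 with the block) and -1.28 ± 0.50 in shLuc cells (adjusted p 0.187, 0.0109 with the block). Without slide 1 the shLuc difference was -1.29, with an adjusted p of 0.0201 and no block.

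Dcn, decorin, had levels of 0.53, 2.03 and 1.38 in shSix4 cells with MyoD and 0.70, 1.63 and 1.68 with the empty vector. The shLuc arrays gave 1.15, 1.93 and 1.61 with MyoD and 1.93, 2.46 and 2.45 with the empty vector. In shSix4 cells the 3 slide pairs did not go the same way, while in shLuc cells all 3 were lower with MyoD. The Dcn log2 difference was -0.02 ± 0.39 in shSix4 cells (adjusted p 0.999, 0.96 with the block) and -0.71 ± 0.39 in shLuc cells (adjusted p 0.371, 0.021 with the block).

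Fmod, fibromodulin, a collagen-binding relative of lumican, was a dim probe, with levels of -4.19, -4.59 and -4.43 in shSix4 cells with MyoD and -3.99, -4.36 and -3.86 with the empty vector. Levels in shLuc cells were -4.12, -4.28 and -4.27 with MyoD and -3.90, -3.59 and -3.21 with the empty vector, without overlap. The Fmod log2 difference was -0.34 ± 0.22 in shSix4 cells (adjusted p 0.772, 0.294 with the block) and -0.65 ± 0.22 in shLuc cells (adjusted p 0.113, 0.0277 with the block).

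Vcan encodes versican, a large hyaluronan-binding proteoglycan of loose matrix. Its levels were 1.71, 3.17 and 3.25 in shSix4 cells with MyoD and 2.35, 3.6 and 3.69 with the empty vector. For shLuc cells the values were 1.20, 2.80 and 2.62 with MyoD and 2.57, 3.30 and 3.54 with the empty vector. All slide pairs were lower with MyoD although the groups overlapped. The Vcan log2 difference was -0.51 ± 0.55 in shSix4 cells (adjusted p 0.956, 0.0924 with the block) and -0.93 ± 0.55 in shLuc cells (adjusted p 0.413, 0.00362 with the block).

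Prelp, a proteoglycan that binds collagen and perlecan, had the largest proteoglycan difference in shSix4 cells and passed in neither fit. Levels were -0.37, 2.91 and 3.20 in shSix4 cells with MyoD, against 1.32, 3.40 and 3.67 with the empty vector. Among shLuc arrays the levels were 1.80, 3.69 and 3.92 with MyoD and 2.71, 3.82 and 4.25 with the empty vector. The spread came from slide 1, which lay far below the others. The Prelp difference was -0.88 ± 0.97 in shSix4 cells (adjusted p 0.957, 0.158 with the block), and with the slide 1 array of shSix4 cells with MyoD left out it turned to 0.26. The remaining 3, Bgn (biglycan), Ogn (mimecan) and Aspn (asporin), had differences between -0.21 and 0.17 in shSix4 cells and between -0.25 and 0.14 in shLuc cells, none of which passed.

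Elastic fibre and microfibril genes gave 0 of 11 in the main test in either line. With the block 2 passed in shSix4 cells, both lower, and 4 in shLuc cells, 1 higher and 3 lower. Over all genes the blocked fit called 2.6% lower in shSix4 cells, and 9.89% higher and 15.7% lower in shLuc cells. Fbln2, fibulin 2, had levels of 5.18, 5.67 and 5.15 in shSix4 cells with MyoD, against 6.10, 6.04 and 5.91 with the empty vector. In shLuc cells its levels were 5.26, 5.53 and 5.43 with MyoD and 5.98, 6.23 and 5.88 with the empty vector. The MyoD arrays lay wholly lower in both lines. The Fbln2 log2 difference was -0.68 ± 0.19 in shSix4 cells (adjusted p 0.107, 0.0128 with the block) and -0.62 ± 0.19 in shLuc cells (adjusted p 0.0846, 0.00946 with the block).

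Efemp1, fibulin 3, had levels of 2.02, 3.67 and 3.22 in shSix4 cells with MyoD and 2.91, 3.98 and 3.91 with the empty vector. Its shLuc levels were 1.31, 2.46 and 2.00 with MyoD and 2.42, 3.18 and 3.0 with the empty vector. Each slide pair was lower with MyoD, with overlap between groups. The Efemp1 log2 difference was -0.63 ± 0.46 in shSix4 cells (adjusted p 0.838, 0.0486 with the block) and -0.94 ± 0.46 in shLuc cells (adjusted p 0.297, 0.00392 with the block). Efemp2 is fibulin 4, which takes part in elastic fibre assembly with lysyl oxidase. Its levels were 4.82, 4.95 and 4.59 in shSix4 cells with MyoD and 5.15, 5.21 and 5.22 with the empty vector. The shLuc arrays gave 4.60, 4.78 and 4.51 with MyoD and 5.32, 5.48 and 5.0 with the empty vector, so that both lines showed MyoD arrays wholly lower. The Efemp2 log2 difference was -0.41 ± 0.18 in shSix4 cells (adjusted p 0.471, 0.0731 with the block) and -0.63 ± 0.18 in shLuc cells (adjusted p 0.0625, 0.00574 with the block).

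Mfap4 went the other way. This microfibril-associated protein had levels of -1.53, -0.48 and -0.09 in shSix4 cells with MyoD, against -4.07, -1.37 and -0.94 with the empty vector. Levels in shLuc cells were 1.20, 1.61 and 1.73 with MyoD and -0.71, 0.48 and 0.20 with the empty vector. All 6 slide pairs were higher with MyoD, and in shLuc cells the groups were apart. The Mfap4 log2 difference was 1.42 ± 0.70 in shSix4 cells (adjusted p 0.585, 0.0735 with the block) and 1.53 ± 0.70 in shLuc cells (adjusted p 0.27, 0.028 with the block), and without slide 1 it was 1.33 in shLuc cells with an adjusted p of 0.0128.

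Fbn1 (fibrillin 1), Fbln1 and Fbln5 (fibulins 1 and 5), Eln (elastin), Emilin1 and the microfibril proteins Mfap2 and Mfap5 passed neither fit. Their differences lay between -0.45 and 0.17 in shSix4 cells and between -0.64 and 0.06 in shLuc cells. Mfap2, whose MyoD differences were -0.26 ± 0.98 in shSix4 cells and -0.64 ± 0.98 in shLuc cells, had levels of -3.81, -1.07 and -1.02 in shSix4 cells with MyoD and -3.71, -0.90 and -0.51 with the empty vector. Its levels in shLuc cells were -2.90, -0.72 and -1.35 with MyoD and -2.04, -0.29 and -0.70 with the empty vector, with slide 1 lowest in every group.

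Collagen processing and crosslinking genes gave no call in either fit: 0 of 5 in each line. With the block 8.3% of all genes passed in shSix4 cells and 25.6% in shLuc cells. Pcolce, the enhancer of procollagen C-proteinase, had levels of 7.46, 7.72 and 7.30 in shSix4 cells with MyoD, against 7.88, 7.67 and 7.46 with the empty vector. For shLuc cells the values were 7.47, 8.06 and 7.37 with MyoD and 8.02, 8.52 and 7.43 with the empty vector. The groups overlapped, with log2 differences of -0.18 ± 0.29 in shSix4 cells and -0.35 ± 0.29 in shLuc cells (adjusted p 0.995 and 0.572). Serpinh1, the collagen chaperone HSP47, had levels of 6.81, 6.43 and 5.98 in shSix4 cells with MyoD, against 6.79, 6.39 and 6.36 with the empty vector. Among shLuc arrays the levels were 6.48, 6.32 and 6.14 with MyoD and 6.62, 7.17 and 6.30 with the empty vector. Its differences were -0.11 ± 0.27 in shSix4 cells and -0.38 ± 0.27 in shLuc cells (adjusted p 0.997 and 0.502), the second resting mainly on slide 2. Loxl1 (a lysyl oxidase family enzyme), P4ha1 (a prolyl hydroxylase subunit) and Plod2 (a lysyl hydroxylase) had differences between -0.12 and 0.01 in shSix4 cells and between -0.22 and -0.08 in shLuc cells.

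Basement membrane genes were 3. Nid1, nidogen 1, which links laminin and collagen IV networks, had levels of 3.90, 4.95 and 4.54 in shSix4 cells with MyoD, against 4.43, 4.94 and 5.02 with the empty vector. In shLuc cells its levels were 3.99, 4.91 and 4.69 with MyoD and 4.48, 5.32 and 5.05 with the empty vector. The groups overlapped, while the 3 slide pairs of shLuc cells were all lower with MyoD. The Nid1 log2 difference was -0.33 ± 0.34 in shSix4 cells (adjusted p 0.943, 0.151 with the block) and -0.42 ± 0.34 in shLuc cells (adjusted p 0.564, 0.0384 with the block). Nid2, nidogen 2, had differences of -0.18 in shSix4 cells and -0.33 in shLuc cells, none of which passed. Hspg2, perlecan, had a difference of -0.21 in shSix4 cells that did not pass. In shLuc cells its spot on slide 3 with the empty vector was marked as an outlier, so the unblocked value of 0.03 sets 3 MyoD arrays against 2. Within slides 1 and 2 it was -0.35 and -0.19, and -0.15 with the block, and it passed in neither fit.

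The second comparison is shSix4 against shLuc within each virus. With MyoD, Lrrc15, a leucine-rich repeat membrane protein of mesenchymal cells, was called lower in shSix4 cells, having entered the tests through the shLuc groups, where it is higher. No other member passed the main test: 1 of 42 was lower and 0 higher, where 0.163% of genes were lower and 0.065% higher. Among genes well above background on every MyoD array, which leaves Lrrc15 out, 0 of 38 members passed in limma, against 0.132% of 11337 genes. With the empty vector 0 of 42 passed in limma's main test, where 0.00813% of genes were higher and 0.0488% lower (0.0569% in all), and 9 members had an unadjusted p under 0.05, as did 4.45% of genes. With the block, 6 members passed with MyoD, 2 higher and 4 lower (1.75% and 2.59% of all genes, 4.33% in all), and 2 with the empty vector, both lower (0.496% of all genes). Among genes well above background on every MyoD array, which leaves out Fap and Lrrc15, 4 of 38 members passed with the block, 2 higher and 2 lower, against 4.09% of genes. Without slide 1 and without a block, 4 members passed with MyoD (2.2% of all genes) and 3 with the empty vector (2.28% of all genes). Without overlap, 3 of 41 members lay higher and 6 lower in shSix4 cells with MyoD (5.98% and 6.05% of all genes), and 2 of 41 higher and 7 lower with the empty vector (3.3% and 5.03% of all genes). The 6 lower include Fap and Lrrc15, and the 7 lower include Lrrc15. Fap and Lrrc15 entered the tests only through shLuc groups where they are high. Neither was above background on every shSix4 array, so their order in these counts is not established. The median member difference was -0.01 with MyoD and -0.14 with the empty vector, beside 0.03 and -0.03 over all genes. With normexp background correction those member medians were 0.20 and 0.20, so that no common direction of the members is stated here. The empty-vector and MyoD comparisons share no arrays, whereas each shares arrays with the MyoD comparisons above.

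**Figure D3:**
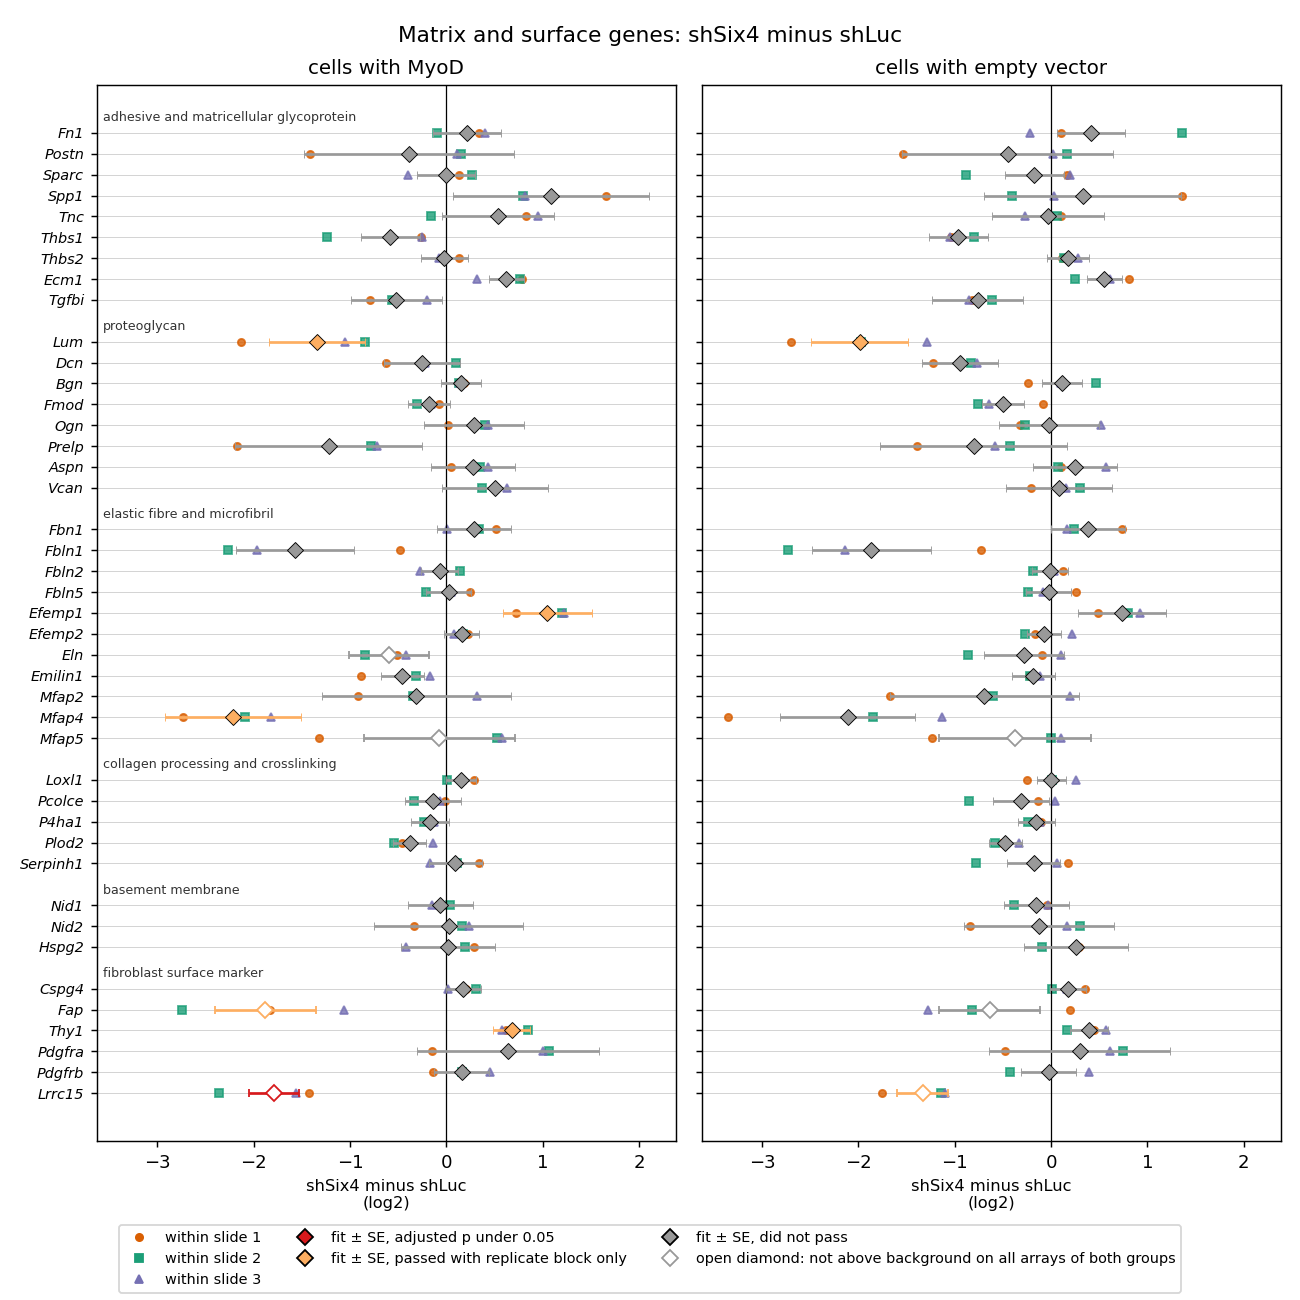
shSix4 minus shLuc on the log2 scale for each tested gene, ordered by role, with cells given MyoD on the left and cells given the empty vector on the right. Symbols are as in the plot of MyoD differences: Lrrc15 with MyoD, at -1.79, is the red diamond, and Lum, Mfap4, Fap, Lrrc15, Efemp1 and Thy1 hold the orange ones. Open diamonds, those of Lrrc15 and Fap among them, mark genes that were not well above background on all arrays of both groups.

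Lrrc15 (probe A_52_P90805) had levels of -5.28, -5.47 and -5.63 in shSix4 cells with MyoD, against -3.85, -3.11 and -4.07 in shLuc cells with MyoD. With the empty vector its levels were -5.08, -4.61 and -4.94 in shSix4 cells and -3.33, -3.46 and -3.84 in shLuc cells. The shSix4 arrays lay wholly below the shLuc arrays under both viruses. The fitted difference was -1.79 ± 0.26 with MyoD (adjusted p 0.0221, 0.00561 with the block) and -1.33 ± 0.26 with the empty vector (adjusted p 0.245, 0.023 with the block). Its probe exceeded background on every array of both shLuc groups but on 2 of 3 in both shSix4 groups, so these differences include arrays with no level above background and no fold is given. Without slide 1 the difference with MyoD was -1.96, at an adjusted p of 0.0326. The call was lost when any 1 of the 6 MyoD arrays was left out, with adjusted p between 0.0589 and 0.0966, without the filter on dim probes, at 0.057, when only the MyoD arrays were fitted, at 0.152, and with normexp, where the difference was -1.12 at 0.939. Calls over all genes fell in the same settings, from 28 to between 1 and 14 with a MyoD array left out. They fell to 2 without the filter, and to 0 with only the compared arrays and with normexp. MyoD against the empty vector gave Lrrc15 differences of -0.58 ± 0.26 in shSix4 cells (adjusted p 0.502) and -0.13 ± 0.26 in shLuc cells (adjusted p 0.853).

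Lum, whose array values stand above, averaged -1.28 ± 0.95 in shSix4 cells with MyoD and 0.07 ± 0.26 in shLuc cells with MyoD (SD, n = 3 each). Given the empty vector it averaged -0.64 ± 0.88 in shSix4 cells and 1.34 ± 0.39 in shLuc cells. Under both viruses the shSix4 arrays lay wholly lower. As a log2 difference this was -1.34 ± 0.50 with MyoD (adjusted p 0.458, 0.0316 with the block) and -1.99 ± 0.50 with the empty vector (adjusted p 0.376, 0.0224 with the block). Without slide 1 these differences were -0.95 and -1.63, at adjusted p 0.103 and 0.0192 with no block. Dcn, with means of 1.33 ± 0.55 in shSix4 cells and 2.28 ± 0.30 in shLuc cells with the empty vector, also lay wholly lower, but its difference of -0.94 ± 0.39 passed in neither fit (adjusted p 0.999, 0.0602 with the block).

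Mfap4 averaged -0.70 ± 0.75 in shSix4 cells with MyoD and 1.51 ± 0.28 in shLuc cells with MyoD. Its empty-vector means were -2.13 ± 1.70 in shSix4 cells and -0.01 ± 0.62 in shLuc cells. The groups were apart under both viruses. Its log2 difference was -2.22 ± 0.70 with MyoD (4.64-fold lower, adjusted p 0.303, 0.0225 with the block) and -2.11 ± 0.70 with the empty vector (4.32-fold lower, adjusted p 0.8, 0.0632 with the block), and leaving out slide 1 gave -1.96 and -1.49 (adjusted p 0.0193 and 0.0206 with no block). Mfap4 was thus higher with MyoD and lower in shSix4 cells by measured value in every slide pair, with shSix4 cells given the empty vector lowest on each slide.

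Fap, counted as lower in shSix4 cells with MyoD by the blocked fit, was well above background on 1 of those 3 arrays, so no difference is given. Efemp1 and Thy1 were on the other side. Efemp1 averaged 2.97 ± 0.85 in shSix4 cells with MyoD and 1.92 ± 0.58 in shLuc cells with MyoD, a difference of 1.05 ± 0.46 (adjusted p 0.606, 0.0121 with the block), with overlap between the groups and a higher shSix4 value on each slide. Its difference with the empty vector was 0.74 ± 0.46 (adjusted p 0.999, 0.0882 with the block). Thy1 averaged 3.91 ± 0.29 in shSix4 cells with MyoD and 3.23 ± 0.20 in shLuc cells with MyoD, a difference of 0.68 ± 0.20 without overlap (adjusted p 0.231, 0.0229 with the block). A second Thy1 probe gave 0.23. With the empty vector the Thy1 difference was 0.39 ± 0.20 (adjusted p 0.999, 0.215 with the block), also without overlap.

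Ecm1 and Thbs1 differed between the lines in measured value without passing. Ecm1 arrays lay wholly higher in shSix4 cells under both viruses, with differences of 0.62 ± 0.18 with MyoD and 0.55 ± 0.18 with the empty vector (adjusted p 0.232 and 0.793, 0.0532 and 0.146 with the block). Thbs1 lay wholly lower in shSix4 cells with the empty vector, at a difference of -0.96 ± 0.31 (adjusted p 0.781, 0.146 with the block). Fbln1, a fibulin of basement membranes and elastic fibres, averaged -3.74 ± 1.23 in shSix4 cells with MyoD and -2.16 ± 0.30 in shLuc cells with MyoD. Within slides 1, 2 and 3 its differences were -0.48, -2.27 and -1.96 with MyoD and -0.72, -2.74 and -2.14 with the empty vector, where its means were -3.91 ± 1.12 in shSix4 cells and -2.04 ± 0.28 in shLuc cells. Slide 1 thus gave the smallest difference in each case, and the adjusted p was 0.499 with MyoD and 0.793 with the empty vector (0.057 and 0.0757 with the block). The fitted Fbln1 differences were -1.57 with MyoD and -1.87 with the empty vector, and a second probe gave -1.65 and -1.76. The shSix4 arrays lay wholly lower with the empty vector, while the groups overlapped with MyoD.

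Plod2, which hydroxylates lysines of collagen telopeptides before crosslinking, had the largest difference of its role. Its levels were 1.40, 1.60 and 1.70 in shSix4 cells with MyoD, against 1.86, 2.14 and 1.84 in shLuc cells with MyoD. With the empty vector they were 1.57, 1.79 and 1.70 in shSix4 cells and 2.08, 2.38 and 2.03 in shLuc cells. The shSix4 arrays lay wholly lower under both viruses, by log2 differences of -0.38 ± 0.17 and -0.48 ± 0.17 that passed in neither fit (adjusted p 0.644 and 0.912, 0.111 and 0.113 with the block). Hspg2 had the largest difference of the basement membrane genes with the empty vector in the unblocked fit only. Its levels there were 4.70, 5.46 and 5.57 in shSix4 cells and 4.41 and 5.55 in shLuc cells, where 1 array was left out as an outlier. Its levels with MyoD were 4.35, 5.55 and 5.18 in shSix4 cells and 4.06, 5.36 and 5.60 in shLuc cells. The Hspg2 difference was 0.26 ± 0.54 with the empty vector (adjusted p 0.999) and turned to -0.04 without slide 1. It sets 3 arrays against 2: within slides 1 and 2 it was 0.29 and -0.09, and 0.08 with the block. The other members not named for this comparison had differences that passed in neither fit under either virus.

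**Figure D4:**
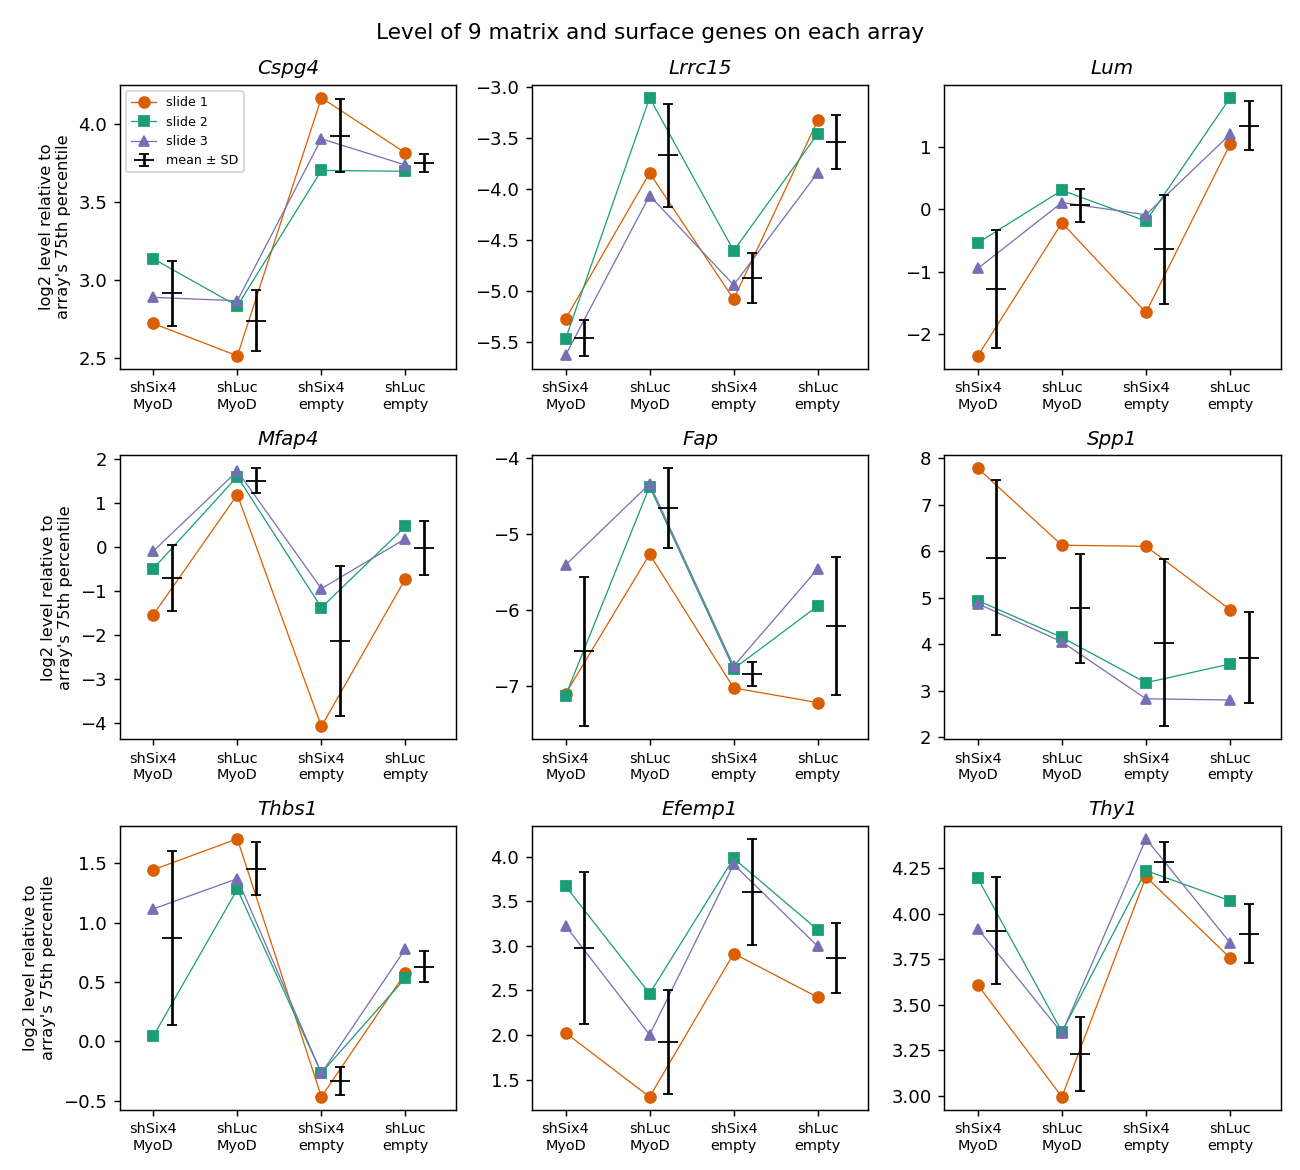
Log2 level relative to the array's 75th percentile on each of the 12 arrays for 9 genes that passed in at least 1 fit, with 1 symbol per slide, lines joining arrays of a slide, and crosses with bars for the mean ± SD of 3 arrays. Cspg4 is low in both MyoD groups, Lrrc15 and Lum are low in both shSix4 groups, and the slide 1 points of Spp1 lie far above the others.

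Markers of other cell states were summed in the same way. Over 10 cell cycle genes the signal ranged over 39.7 to 105 in shSix4 cells with MyoD, 79.9 to 86.7 in shLuc cells given MyoD, 27.1 to 107 in shSix4 cells given the empty vector and 64.7 to 108 in shLuc cells with the empty vector, and the slide 1 array was the highest in each group. The muscle markers were lower in shSix4 cells with MyoD than in shLuc cells with MyoD on every slide, as their sums above show. For 7 smooth muscle and myofibroblast markers the sums ranged over 173 to 405 in shSix4 cells with MyoD, 299 to 462 in shLuc cells given MyoD, 112 to 384 in shSix4 cells given the empty vector and 171 to 361 in shLuc cells with the empty vector. Their part in the hairpin differences of the matrix genes was not tested.

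Whether the MyoD response itself differed between the lines was tested as an interaction, the response in shSix4 cells minus that in shLuc cells. In limma 0 of 42 members passed, as did 0% of all genes, both without and with the block. At an unadjusted p under 0.05 there were 0 members and 249 genes (2.02%) without the block, and 2 members and 768 genes with it. Fap is not given here, since its levels were mostly not above background. The largest positive value was that of Spp1, 0.76 ± 1.44, followed by Dcn with 0.69 ± 0.56 and Lum with 0.64 ± 0.71. For basement membrane genes the largest in the unblocked fit was Hspg2 with -0.24 ± 0.73, which also lacks its outlier array and was -0.06 with the block. For collagen processing genes it was Serpinh1 with 0.28 ± 0.38. Apart from that of Dcn, each of these unblocked values was smaller in size than its SE. Members that passed for MyoD with the block in shLuc cells and not in shSix4 cells, such as Lum and Vcan, are therefore not shown to respond differently.

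Other genes of the same assemblies were described from a list of 65 related matrix genes, of which 54 were tested. In the main test 1 of 54 was higher and 0 lower with MyoD in shSix4 cells, 1 higher and 2 lower with MyoD in shLuc cells, and 0 passed in either shSix4 against shLuc comparison. Over all genes 2.79% were higher and 0.106% lower with MyoD in shSix4 cells, and 4.72% higher and 1.56% lower in shLuc cells. For shSix4 against shLuc, 0.228% of all genes passed with MyoD and 0.0569% with the empty vector. Gpc1, the membrane heparan sulphate proteoglycan glypican 1, had levels of 7.20, 6.36 and 6.85 in shSix4 cells with MyoD, against 5.57, 5.53 and 5.66 with the empty vector. Its shLuc levels were 7.18, 7.0 and 7.12 with MyoD and 5.18, 5.71 and 5.46 with the empty vector. The groups were far apart in both lines, and Gpc1 rose by 1.22 ± 0.22 in shSix4 cells (adjusted p 0.01) and 1.65 ± 0.22 in shLuc cells (adjusted p 0.000745).

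Of the 2 related genes called lower in shLuc cells, 1 was well above background on every array compared. That was Epyc, the small leucine-rich proteoglycan epiphycan of cartilage. It had levels of -2.68, -1.45 and -1.77 with MyoD and -0.42, -0.46 and -0.67 with the empty vector, a log2 difference of -1.45 ± 0.31 (adjusted p 0.0169). In shSix4 cells its levels were -3.15, -2.35 and -2.51 with MyoD and -1.70, -1.80 and -2.04 with the empty vector, which were also apart. The other was Ncan, the brain proteoglycan neurocan, whose dim probe passed the filter only through shLuc cells with the empty vector. It was above background on 1 of 3 MyoD arrays of shLuc cells, with levels of -5.46, -5.81 and -5.38 with MyoD and -5.05, -4.22 and -4.73 with the empty vector, and no difference is given. With the block 5 related genes (9.26%) passed in shSix4 cells and 17 (31.5%) in shLuc cells. Over all genes the blocked fit called 8.3% in shSix4 cells and 25.6% in shLuc cells. Of the related genes, Mfap3l passed in both lines, at 2.05 in shSix4 cells (blocked adjusted p 0.00164) and 2.22 in shLuc cells (0.000597). For the second value, 2 of 3 shLuc arrays with the empty vector gave a signal above background. For shSix4 against shLuc, Gpc3, glypican 3, had a difference of -1.23 ± 0.42 with MyoD and -1.63 ± 0.42 with the empty vector (adjusted p 0.381 and 0.427, 0.00884 and 0.00456 with the block), with 2 of 3 shSix4 arrays above background under the empty vector. Emilin2, an elastic fibre glycoprotein, had one of 0.97 ± 0.25 with MyoD (adjusted p 0.165, 0.00981 with the block).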

How the data were processed

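Gene expression was measured on 12 single-colour Agilent mouse arrays, 3 in each of 4 groups taken from the source names and characteristics of the labels. A free-text label that names another cell line and stage was not used. The deposited scanner files hold the spot intensity that Agilent Feature Extraction made, background-corrected by that software per the file headers (version 11.5.1.1 in the headers, 10.5.1.1 per the submitters' processing notes). A deposited value table of 3891 probes holds log2 values of the same arrays, with column medians of 8.68 to 8.73 and correlating with their own arrays at 0.9994 to 0.99986, and was used only as an alternative.

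From the intensities, log2 of the processed signal minus the array's 75th percentile over 43379 non-control spots was taken, without outlier-marked spots, and spots of a probe were averaged. A probe was kept if every array of some group showed it well above background. It was named through its RefSeq accession and the brightest kept probe stood for its gene, which gave 12300 genes. Between 22318 and 27448 probes were well above background on an array, no non-control spot was saturated, and the number of arrays limits the precision. limma 3.58.1 (R 4.3.3) fitted group means over all arrays, with Benjamini-Hochberg adjustment over all genes and a threshold of 0.05, for 5 comparisons. This fit was tested on simulated data in which arrays of a slide did not deviate together. The fit with the block was not tested in that way. The labels share replicate numbers, each of which is 1 slide. Same-numbered arrays deviated from their group means together (correlations of 0.278 to 0.819 over 18 pairs, against -0.733 to 0.498 over 36 pairs of different number), so the numbers pair the arrays and the fit with this block is given beside the main one.

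Promoter sequences came from RefSeq. Alternatives were normexp, quantile normalization, other filters and probe summaries, the arrays of the compared groups alone, the deposited table, each array left out, and, chosen after seeing the data, slide 1 left out and counts among genes well above background on every array compared. Normexp used the median signal of each spot. The members and lists were chosen with earlier results of these data known. Members were given array by array if called in either fit or if they had the largest difference of their role. Related genes were named if called, with at most 4 more of smallest adjusted p.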

Additional observations from a re-analysis of the deposited data

How the results depend on the processing

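With the replicate number as a block, members called were 6 for MyoD in shSix4 cells, 18 in shLuc cells, 6 for shSix4 against shLuc with MyoD and 2 with the empty vector, and related genes 5, 17, 2 and 1 in the same order. Calls over all genes rose as well, to 1021, 3153, 533 and 79 in that order. The block changed no call of the interaction, where members and related genes stayed at 0. Normexp left 0 members and 0 related genes in both MyoD comparisons and 0 members for the hairpins with MyoD, and calls over all genes were then 49 and 86 for MyoD in shSix4 and shLuc cells and 0 in the other comparisons, against 356, 772, 28, 7 and 0 over the 5 comparisons as reported. It turned the difference of Serpinh1 with MyoD in shLuc cells to 0.13, its interaction to -0.18 and Nid1 for the hairpins with MyoD to 0.10. The cause was not tested. Quantile normalization gave 2 related genes for MyoD in shSix4 cells, with 398 calls over all genes. Without a filter on dim probes, and with only probes above background on all arrays, 0 members passed for the hairpins with MyoD, the second because Lrrc15 was not tested. Calls over all genes in that comparison were then 2 and 6. Fitting the compared groups alone, with 6 arrays in place of 12, gave 0 members and 0 related genes for MyoD in shSix4 cells, 3 and 5 in shLuc cells and 0 members for the hairpins with MyoD. Calls over all genes were then 227, 661 and 0 in the same order. The authors' deposited table held 7 members and 12 related genes. Fitted in limma, it gave 0 of either in both MyoD comparisons and 1 member for the hairpins with MyoD, Lrrc15, at -1.91 with an adjusted p of 0.0390, with 51, 157, 21, 3 and 1 calls over all its genes in the 5 comparisons.

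With 1 array left out, members called ranged over 0 to 3 for MyoD in shSix4 cells, 1 to 2 in shLuc cells, 0 to 1 for the hairpins with MyoD and 0 to 0 elsewhere, and related genes over 0 to 2, 1 to 8 and 0 to 0 elsewhere. Calls over all genes then ranged over 266 to 367, 490 to 876 and 1 to 45 in the first 3 of these comparisons. Alternatives were run for members called in either fit or largest of their role in a comparison. Of these, the values that turned sign when 1 array was left out were the interactions of Mfap2 (-0.62 to 1.31), Hspg2 (-0.81 to 0.33) and Spp1 (-0.20 to 1.79), Nid1 for the hairpins with MyoD (-0.33 to 0.22), Hspg2 with the empty vector (-0.31 to 0.83) and Prelp with MyoD in shSix4 cells (-1.62 to 0.26), and none of these was called. Without slide 1, 6 members and 10 related genes passed for MyoD in shLuc cells, 4 and 3 for the hairpins with MyoD and 3 and 2 with the empty vector, with 433, 1000, 271 and 280 calls over all genes in the first 4 comparisons, and Hspg2 with the empty vector was -0.039. With the block as well, calls were 2 and 2 for MyoD in shSix4 cells, 9 and 12 in shLuc cells, 8 and 8 for the hairpins with MyoD and 5 and 2 with the empty vector, with 586, 1619, 613, 432 and 1 over all genes in the 5 comparisons, and Hspg2 was -0.037. Cspg4 stayed past the threshold in 17 of 22 alternatives in shSix4 cells and 21 of 22 in shLuc cells, and Lrrc15 with MyoD in 13 of 22. These tallies include alternatives that left out an array of a group not compared, which could not change the difference. Lrrc15 lost its call in every alternative that left out 1 of the arrays compared, so its tally is no measure of how firm the call is.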
